A study of Mus musculus with 12 samples.

Results

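Expression of the catenins, of genes of the Wnt pathway and of the Wnt target gene Wisp1 was followed in mouse regulatory T cells (Treg) with and without Ikaros. The genes were 7 of the 36222 in the table, matched by symbol: Wisp1, Ctnnd1, Ctnna1, Ctnnb1, Axin2, Apc and Gsk3b. Treg, labelled as coming from spleen, were sorted from CD4+ T cells by yellow fluorescent protein (YFP), which comes with Cre from the Foxp3 locus. Wild-type (WT) mice carried Foxp3-YFP-Cre alone. Ikzf1 conditional knockout (cKO) mice carried it together with a floxed Ikzf1 gene, so that Cre was present in all groups and Ikaros was deleted in Foxp3-expressing cells. RNA came from cells taken directly ex vivo or after culture for 4 h on immobilised antibodies against the T cell receptor component CD3 and the costimulatory receptor CD28, each used at 1 µg/ml (stimulated). None of the 4 groups was cultured without the antibodies, so effects of culture and of the antibodies cannot be told apart. Stimulation stands for both below. The 4 groups held 3 libraries each, and cells were taken from individual mice. In such bulk samples, fewer cells expressing a gene and less RNA per cell cannot be told apart.

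β-catenin, the product of Ctnnb1, has a pair of roles. At cadherin junctions it links the cadherin tail to α-catenin (Ctnna1), which connects to actin, while p120-catenin (Ctnnd1) binds the cadherin nearer the membrane and keeps it at the cell surface. In the cytoplasm, a destruction complex built on Axin and APC lets the kinase GSK3β mark β-catenin for degradation. Wnt ligands stop that complex, β-catenin then enters the nucleus and works with TCF and LEF factors, and Axin2 and Wisp1 are among the genes it can activate. Wisp1, also called Ccn4, encodes a secreted matricellular protein of the CCN family. The amount of β-catenin protein is set largely by its degradation, and the RNA data used here hold no protein. By flow cytometry, the study reports more β-catenin protein in cKO than in WT Treg.

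The sequences upstream of Wisp1 and Ctnnd1 are shown because these were the members with the largest differences between genotypes and with closely similar profiles. Wisp1 spans chr15:66722882-66754763 on the plus strand and Ctnnd1 spans chr2:84440228-84490922 on the minus strand of NCBIM37 (mm9), with GENCODE vM1 annotation. The 250 bases before the outermost annotated start of each gene are printed 5′ to 3′ on the strand of the gene, chr15:66722632-66722881 (+) for Wisp1 and chr2:84490923-84491172 (-) for Ctnnd1. Capitals mark a match to the TCF/LEF core CTTTGA on either strand.
Wisp1: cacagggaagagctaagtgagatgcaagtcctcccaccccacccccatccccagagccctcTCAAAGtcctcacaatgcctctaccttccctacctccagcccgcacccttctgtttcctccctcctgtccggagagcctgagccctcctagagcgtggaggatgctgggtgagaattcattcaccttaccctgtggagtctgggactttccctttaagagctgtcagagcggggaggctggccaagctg
Ctnnd1: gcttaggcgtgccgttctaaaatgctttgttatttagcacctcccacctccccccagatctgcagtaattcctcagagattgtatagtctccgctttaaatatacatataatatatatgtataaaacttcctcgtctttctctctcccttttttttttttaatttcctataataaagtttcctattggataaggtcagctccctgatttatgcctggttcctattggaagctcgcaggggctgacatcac
The Wisp1 window held 1 match to CTTTGA, beginning 189 bases before the start and lying on the opposite strand (TCAAAG). The Ctnnd1 window held 0. Other forms of the TCF/LEF site were not searched, and the Ctnnd1 window holds the related letters ctttgtt near its upstream end. Of 22380 windows of this length before protein-coding genes, 13.4% held CTTTGA on either strand. The Ikaros core TGGGAA, searched on both strands, was in neither window and in 21.0% of all windows. The shorter core GGGAA, as the study gives it, was counted after the windows had been seen and is not in capitals. It is part of TGGGAA, was searched on both strands (TTCCC on the opposite one), and occurred 3 times in the Wisp1 window, 0 times in the Ctnnd1 window and at least once in 56.1% of all windows. A match, or its absence, describes only these 250 bases. Wisp1 has 4 and Ctnnd1 30 annotated transcripts, so other starts exist. G and C made up 58.8% of the window of Wisp1 and 39.6% of that of Ctnnd1.

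Values are in scaled TPM, that is, the deposited TPM (reads per transcript length, brought to the same total in each library) divided by a scaling factor for the library. As TPM is a level per length, levels of different genes can be set side by side. Differences were taken between values of log2(scaled TPM + 1) and are followed by the standard error (SE) of the fit. This scale understates the change of genes at low level. A gene was called when its Benjamini-Hochberg adjusted p from limma over the 13318 tested genes was under 0.05. All 7 members reached the filter of 5 TPM in the mean of at least 1 group, Ctnnd1 only through its cKO groups. Wisp1, Ctnnd1 and Ctnna1 were picked by the study from genotype contrasts of these libraries. Their genotype differences, and the interactions built from them, are therefore given without a test. Each stimulation effect shares libraries with both genotype effects.

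Libraries held 8208659 to 20247649 reads assigned to genes, with the fewest in cKO stimulated. The transcript Gm10800 took 17.7% to 55.9% of the TPM of a library, and scaling factors ran from 0.73 to 1.21. All 5 markers of Treg and CD4 T cells (Foxp3, Il2ra, Ctla4, Cd4 and Cd3e) stood above the 95th percentile of 1555 olfactory and vomeronasal receptor genes in every library. Ikzf1, the targeted gene, was at 114, 104 and 113 scaled TPM in WT ex vivo against 42.1, 33.03 and 38.4 in cKO. After stimulation it was at 66.7, 71.1 and 68.9 in WT against 29.96, 30.1 and 23.3 in cKO. The transcript was lower in every cKO library than in every WT library of the same state, by 1.52 ± 0.11 (log2 ± SE) ex vivo and 1.29 ± 0.11 after stimulation, and reads remained in all cKO libraries.

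Among the 7 genes, Wisp1 differed most between genotypes ex vivo, whereas after stimulation Wisp1 and Ctnnd1 were close to each other. Ex vivo Wisp1 stood at 2.83, 2.71 and 1.68 scaled TPM in WT, while the cKO libraries reached 21.0, 18.4 and 20.6. The groups did not overlap, and the lowest cKO library was several times above the highest WT library. The WT values rested on 111 to 161 reads and the cKO values on 985 to 1580 reads. All WT libraries were above the 95th percentile of the receptor genes, which served as a measure of background. That limit was 1.58, 2.64 and 1.57 scaled TPM in these libraries, so replicates 2 and 3 cleared it only narrowly. Wisp1 in WT ex vivo was thus near background, and the ratio of the means rests on these low values. Group means were 2.41 ± 0.633 and 19.97 ± 1.396 scaled TPM (SD, n = 3), a ratio of 8.30 and a log2 difference of 2.64 ± 0.14.

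The same separation was seen after stimulation. Wisp1 was then at 5.599, 5.29 and 4.66 scaled TPM in WT and at 29.7, 34.8 and 27.4 in cKO. Again every cKO library exceeded every WT library. The means were 5.18 ± 0.477 and 30.6 ± 3.77 (SD, n = 3), a ratio of 5.91 and a log2 difference of 2.35 ± 0.14. The genotype difference after stimulation minus that ex vivo was -0.29 ± 0.20 (log2), with a range of -0.76 to -0.08 over the alternatives, lowest with TPM as deposited. With 1 library left out it ranged from -0.41 (without cKO stimulated replicate 2) to -0.0843 (without WT ex vivo replicate 3), and it was -0.18 without cKO stimulated replicate 3.

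Stimulation raised Wisp1 in both genotypes. These comparisons share libraries with the genotype contrasts from which Wisp1 was picked, so they are not independent of that choice. In WT it rose by 0.88 ± 0.14 (log2, 2.15 times in scaled TPM, adjusted p = 0.000842), and in cKO by 0.59 ± 0.14 (1.53 times, adjusted p = 0.00719). In both genotypes the 3 stimulated libraries were above the 3 ex vivo libraries, and both calls held whenever a single library was left out. The rise in cKO was lost with TPM as deposited (0.27, adjusted p = 0.313) and with genes down to 1 TPM included (0.06, adjusted p = 0.891), and the latter also ended the call in WT (0.69, adjusted p = 0.121). Stimulated WT cells did not reach the level of resting cKO cells, since the highest library of the former was at 5.599 and the lowest of the latter at 18.4.

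**Figure D1:**
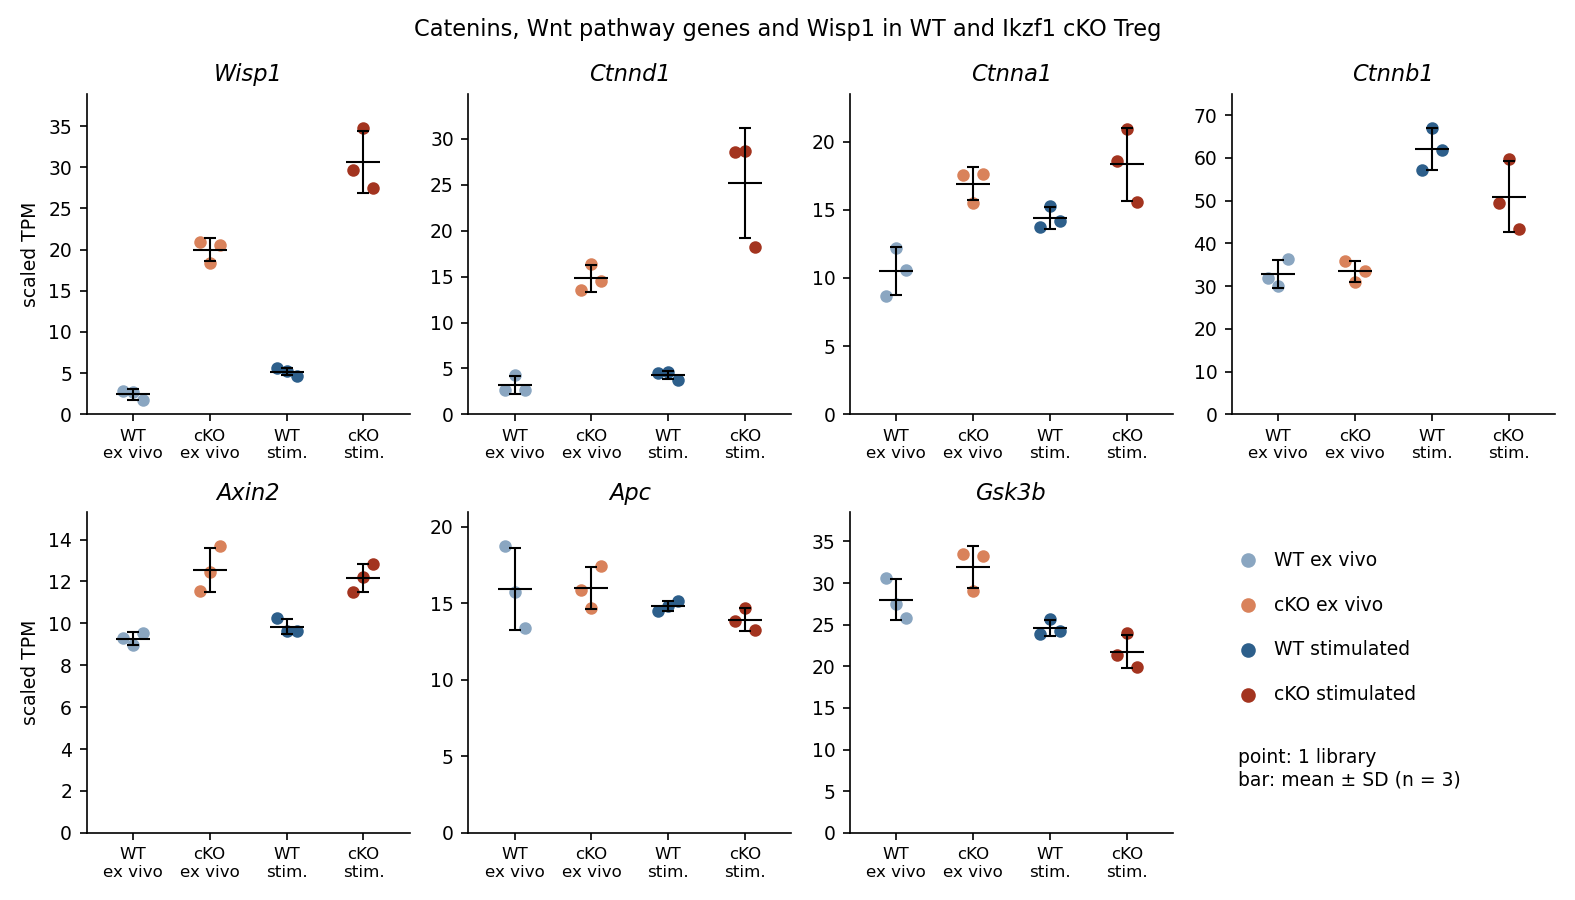
Level of each of the 7 genes in scaled TPM (vertical axes, each starting at 0) in the 4 groups. Points are libraries and bars the mean ± SD of 3. Wisp1 and Ctnnd1 separate the genotypes in both states, with Wisp1 at 1.68 to 5.599 in the WT libraries and 18.4 to 34.8 in the cKO libraries, while Ctnnb1 separates stimulated from ex vivo libraries.

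Ctnnd1, encoding p120-catenin, showed a similar pattern. In ex vivo cells it stood at 2.61, 4.33 and 2.598 scaled TPM in WT and at 13.5, 16.3 and 14.5 in cKO. In stimulated cells the WT libraries were at 4.45, 4.62 and 3.74 and the cKO libraries at 28.6, 28.7 and 18.3. The genotypes were fully separated in both states, and replicate 3 of cKO stimulated lay well under the others of its group. The ratio of the means was 4.66 ex vivo and 5.90 after stimulation. The log2 differences were 1.94 ± 0.19 and 2.29 ± 0.19. The second minus the first was 0.35 ± 0.27, a value that turned to -0.125 with TPM as deposited. With 1 library left out it ranged from 0.16 (without WT ex vivo replicate 2) to 0.60 (without cKO stimulated replicate 3), and it was 0.21 without cKO stimulated replicate 2.

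The response of Ctnnd1 to stimulation passed the test in cKO and not in WT. In cKO it rose by 0.71 ± 0.19 (log2, 1.70 times, adjusted p = 0.0134), and all stimulated libraries were above the ex vivo ones. In WT the difference was 0.36 ± 0.19 (95% interval -0.07 to 0.78, adjusted p = 0.184), and the groups overlapped. The WT difference was called without WT ex vivo replicate 2 (0.55, adjusted p = 0.0435) and by voom on recovered reads (0.51, adjusted p = 0.0441). The cKO call was lost without cKO ex vivo replicate 1 (adjusted p = 0.0527) or cKO stimulated replicate 2 (adjusted p = 0.0588), with TPM as deposited (0.39, adjusted p = 0.219) and with genes down to 1 TPM included (0.19, adjusted p = 0.658). Whether the responses of the genotypes differ was not tested for Ctnnd1.

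Across the 12 libraries, Wisp1 and Ctnnd1 ran closely together (Pearson's r = 0.976 on the log2 scale). The libraries fall into a WT and a cKO cluster, so this r describes mainly the separation of the genotypes. Among 13317 other tested genes, Ctnnd1 had place 4 in correlation with Wisp1, after Ptgfrn (r = 0.983), Dstyk (0.982) and Mmp14 (0.981) and before Synpo (0.973). The 5 genes most like Ctnnd1 were Synpo, Hectd2, Ptgfrn, Wisp1 and Dstyk, with r from 0.976 to 0.977. Mmp14, which encodes a membrane-bound matrix metalloproteinase, went from a mean of 4.32 scaled TPM in WT to 15.0 in cKO ex vivo, and from 6.51 to 16.7 after stimulation. Of the other members, Axin2 (r = 0.900) and Ctnna1 (0.869) followed Wisp1 more closely than Ctnnb1 did (0.118).

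**Figure D2:**
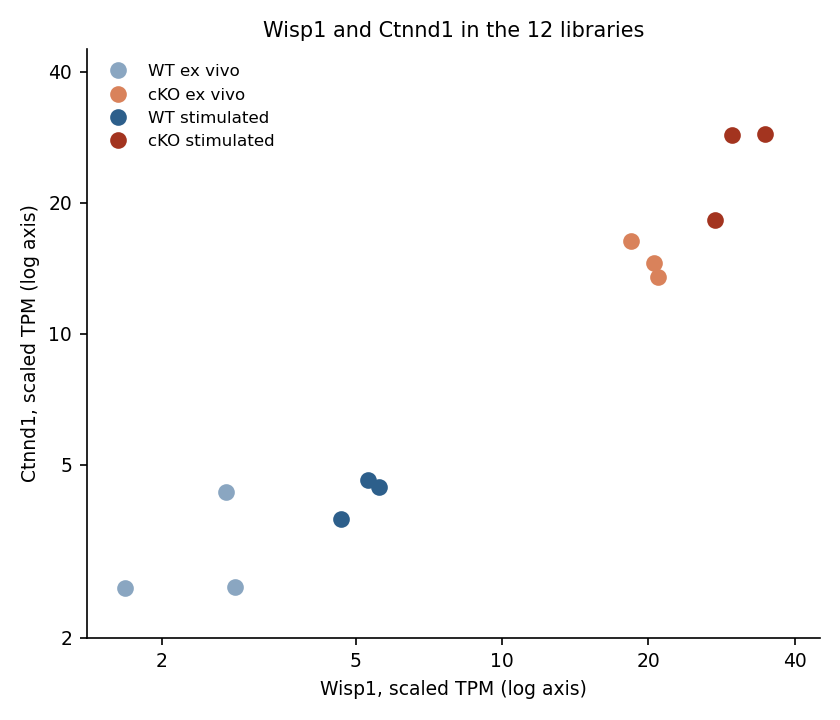
Ctnnd1 against Wisp1 in scaled TPM for each of the 12 libraries, both axes logarithmic, coloured by group. The WT libraries form 1 cluster at the lower left and the cKO libraries another at the upper right, and r over all 12 libraries is 0.976.

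Ctnna1, encoding α-catenin (chr18:35278542-35414427, plus strand), differed less between genotypes. It stood at 8.66, 12.2 and 10.6 scaled TPM in WT ex vivo, compared with 17.6, 15.5 and 17.6 in cKO. Once stimulated, WT libraries were at 13.7, 15.3 and 14.2 and cKO libraries at 18.6, 20.9 and 15.5. The genotypes did not overlap in either state, but after stimulation the lowest cKO library lay close to the highest WT library. The log2 differences were 0.65 ± 0.13 ex vivo, a ratio of 1.61, and 0.32 ± 0.13 after stimulation, a ratio of 1.27. Over the alternatives the latter ranged from 0.03 to 0.46. Without cKO stimulated replicate 2 it was 0.20.

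In WT, Ctnna1 rose with stimulation by 0.43 ± 0.13 (log2, 1.37 times, adjusted p = 0.0248), with all stimulated libraries above the ex vivo ones. In cKO the difference was 0.10 ± 0.13 (95% interval -0.18 to 0.39, adjusted p = 0.530) and the groups overlapped. The WT call was lost without WT ex vivo replicate 1 (0.32, adjusted p = 0.0911), without WT stimulated replicate 2 (adjusted p = 0.0952) or 3 (adjusted p = 0.0580), and with genes down to 1 TPM included (0.20, adjusted p = 0.705). The genes most similar to Ctnna1 over the 12 libraries were Chst11 (r = 0.945), Hspa13 (0.940), Cd80 (0.937), Ptprj (0.936) and Abhd4 (0.934). Ctnna1 overlaps Lrrtm2 on the opposite strand, and reads were counted by strand.

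Ctnnb1, encoding β-catenin (chr9:120838334-120869625, plus strand), followed stimulation rather than genotype. It was the most abundant of the 7 transcripts in the mean of every group. Ex vivo it stood at 31.9, 30.01 and 36.4 scaled TPM in WT and at 35.9, 30.9 and 33.6 in cKO. These groups overlapped, and the difference of 0.03 ± 0.12 (log2) had a 95% interval of -0.24 to 0.30 (adjusted p = 0.943). Stimulated libraries were at 57.2, 67.04 and 61.9 in WT and at 49.4, 59.9 and 43.5 in cKO. The cKO mean of 50.9 ± 8.30 was under the WT mean of 62.1 ± 4.91 (SD, n = 3), but the groups overlapped and the difference of -0.29 ± 0.12 did not pass (95% interval -0.56 to -0.02 before adjustment, adjusted p = 0.181). Without cKO stimulated replicate 2 it was -0.44 and passed (adjusted p = 0.0498). Without cKO stimulated replicate 3 it was -0.15 (adjusted p = 0.555).

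Stimulation raised Ctnnb1 in WT by 0.90 ± 0.12 (log2, 1.89 times, adjusted p = 0.000258) and in cKO by 0.58 ± 0.12 (1.52 times, adjusted p = 0.00343). Every stimulated library exceeded every ex vivo library of its genotype, and both calls held with any 1 library left out. With genes down to 1 TPM included the values were 0.65 (adjusted p = 0.184) and 0.04 (adjusted p = 0.928), and with TPM as deposited the value in cKO was 0.26 (adjusted p = 0.368). The interaction was -0.32 ± 0.17 (95% interval -0.70 to 0.06, adjusted p = 0.414), so a different response of the genotypes was not shown. It was -0.17 without cKO stimulated replicate 3 and -0.47 without cKO stimulated replicate 2 (adjusted p = 0.738 and 0.168). Ulk4 and 4930593C16Rik overlap Ctnnb1 on the other strand.

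Axin2 encodes a scaffold of the destruction complex and is commonly read as a β-catenin target (chr11:108781663-108812097, plus strand). It was modestly higher in cKO ex vivo, at 9.30, 8.95 and 9.56 scaled TPM in WT and at 11.6, 12.4 and 13.7 in cKO. The groups did not overlap, and the difference was 0.40 ± 0.08 (log2, 1.35 times, adjusted p = 0.0160). Stimulated libraries were at 10.2, 9.65 and 9.61 in WT and at 11.5, 12.2 and 12.8 in cKO. These groups were also apart, but the difference of 0.28 ± 0.08 did not pass (95% interval 0.11 to 0.46 before adjustment, adjusted p = 0.0579). The interaction was -0.12 ± 0.11 (adjusted p = 0.668).

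The ex vivo call of Axin2 depended on single libraries. Without cKO ex vivo replicate 3 the value was 0.34 (adjusted p = 0.0763) and without WT ex vivo replicate 2 it was 0.38 (adjusted p = 0.0516). It was also lost with TPM as deposited (0.62, adjusted p = 0.0932) and with genes down to 1 TPM included (0.39, adjusted p = 0.682). Over all alternatives the adjusted p ranged from 0.00511 to 0.682, and the value was positive in each. The effect of stimulation on Axin2 was 0.08 ± 0.08 in WT (95% interval -0.10 to 0.25, adjusted p = 0.492) and -0.04 ± 0.08 in cKO (-0.21 to 0.13, adjusted p = 0.703), the latter called lower with genes down to 1 TPM included (-0.55, adjusted p = 0.0433).

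Apc, encoding the other scaffold of that complex (chr18:34380578-34481843, plus strand), was called in none of the 5 comparisons. It stood at 18.7, 15.7 and 13.4 scaled TPM in WT ex vivo and at 15.8, 14.7 and 17.5 in cKO, and after stimulation at 14.5, 14.8 and 15.2 and 13.9, 14.7 and 13.2. The genotypes overlapped in both states. Genotype differences were 0.02 ± 0.11 ex vivo (95% interval -0.23 to 0.26, adjusted p = 0.971) and -0.09 ± 0.11 after stimulation (-0.33 to 0.16, adjusted p = 0.666). With stimulation Apc differed by -0.08 ± 0.11 in WT (adjusted p = 0.589) and -0.19 ± 0.11 in cKO (adjusted p = 0.189). The latter was called with genes down to 1 TPM included (-0.70, adjusted p = 0.0446).

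Gsk3b, encoding the kinase that phosphorylates β-catenin in the complex (chr16:38089087-38246170, plus strand), fell with stimulation in cKO. The cKO libraries were at 33.5, 29.1 and 33.2 scaled TPM ex vivo and at 21.4, 24.0 and 19.98 when stimulated. They did not overlap, and Gsk3b fell by 0.53 ± 0.09 (log2, a ratio of 0.682, adjusted p = 0.00125). This call held in all 20 alternatives, with values from -1.06 to -0.43. The WT libraries were at 30.6, 27.5 and 25.8 ex vivo and at 23.9, 25.6 and 24.2 when stimulated. That difference of -0.18 ± 0.09 did not pass (adjusted p = 0.177) and was 0.0149 with TPM as deposited. The interaction of -0.36 ± 0.13 did not pass either (95% interval -0.65 to -0.06 before adjustment, adjusted p = 0.247). Genotype differences were 0.18 ± 0.09 ex vivo (adjusted p = 0.349) and -0.17 ± 0.09 after stimulation (adjusted p = 0.297).

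**Figure D3:**
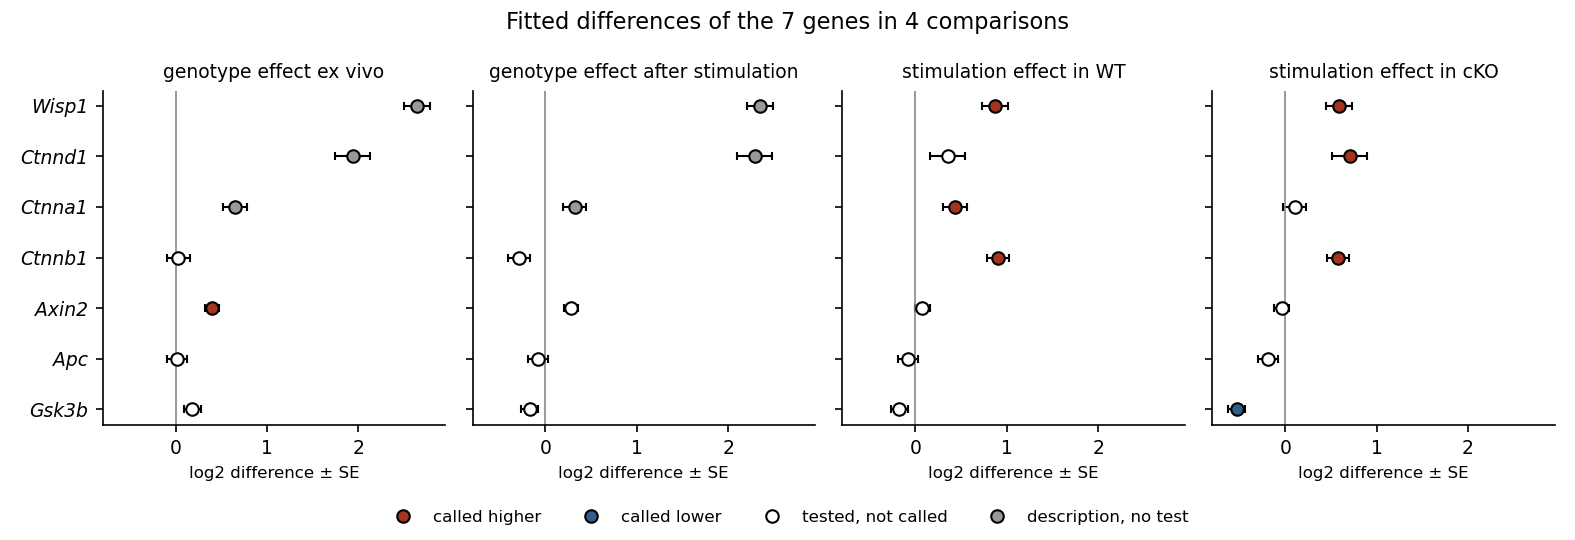
Fitted log2 differences (horizontal axis, log2 of scaled TPM + 1) with error bars for the 7 genes in 4 comparisons. Bars are ± SE, red points were called higher, blue lower, open points did not pass, and grey points were not tested. The genotype panels are led by Wisp1 (2.64 and 2.35) and Ctnnd1 (1.94 and 2.29), and the stimulation panel of WT by Ctnnb1 (0.90) and Wisp1 (0.88).

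Counting only what could be tested, 1 of 4 genes (Axin2) was called for genotype ex vivo, where 5.29% of all tested genes were called and 3.62% were called higher. After stimulation 0 of 4 were called by limma and 0 by voom, 2 of 4 had an unadjusted p under 0.05 (Ctnnb1 and Axin2), and 6.93% of all tested genes were called. With stimulation 3 of 7 genes were called higher in WT (Wisp1, Ctnna1 and Ctnnb1), beside 32.0% of all tested genes, 12.7% higher and 19.3% lower. In cKO 3 of 7 were called higher (Wisp1, Ctnnd1 and Ctnnb1) and 1 lower (Gsk3b), beside 43.8% of all tested genes, 17.3% higher and 26.5% lower. The interaction called 0 of 4 by limma and by voom, with 1 (Gsk3b) at an unadjusted p under 0.05, and it called 1.10% of all tested genes. For Wisp1, Ctnnd1 and Ctnna1 the cKO libraries were above the WT libraries without overlap in both states, as they were for 11.6% of all tested genes ex vivo and 12.8% after stimulation. Nothing is read from this, since these genes were chosen for their genotype difference.

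The order of levels among the 7 differed between genotypes. In WT ex vivo the means ran from Ctnnb1 (32.8 scaled TPM) and Gsk3b (27.98) through Apc (15.9), Ctnna1 (10.48) and Axin2 (9.27) to Ctnnd1 (3.18) and Wisp1 (2.41). Neighbours whose libraries overlapped were Ctnnb1 and Gsk3b, Ctnna1 and Axin2, and Ctnnd1 and Wisp1. In cKO ex vivo Wisp1 (19.97) came behind Ctnnb1 (33.5) and Gsk3b (31.9), and its libraries were above those of Ctnna1 (16.9). There Ctnna1, Apc, Ctnnd1 and Axin2 each overlapped the next. In WT stimulated Ctnnb1 (62.1) led Gsk3b (24.6) without overlap, and Ctnnd1 (4.27) was last. In cKO stimulated Wisp1 (30.6) and Ctnnd1 (25.2) came directly after Ctnnb1 (50.9), although Ctnnd1 overlapped both Wisp1 and Gsk3b (21.8).

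Other genes of the pathway were taken from 7 lists that hold 115 genes besides the members, some in more than 1 list. Of the 115, 39 reached the filter and were tested. In ex vivo cells limma called 2 of them higher in cKO and 2 lower, where 3.62% and 1.67% of all tested genes were. The same numbers of the 39, 2 higher and 2 lower, were found after stimulation, beside 3.30% and 3.63%. The interaction called 1 higher and 1 lower (0.451% and 0.653%). The median log2 difference of the 39 was 0.01 ex vivo and -0.09 after stimulation, beside -0.01 and -0.03 over all tested genes. With 1 library left out, 3 to 4 of the 39 were called for genotype ex vivo and 2 to 6 after stimulation, and with genes down to 1 TPM included 0 and 2 were. Including genes down to 1 TPM ended the ex vivo calls of Rnf43, Znrf3, Lef1 and Vcl described next, and TPM as deposited those of Znrf3, Lef1 and Vcl. Either choice also ended the stimulated calls of Rnf43 and Vcl.

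Ligands and secreted modulators were scarce. Of 34, only Wnt3 and Wnt6 were tested, and none of the other 32 exceeded 4.89 TPM in a group mean. Neither was called for genotype by limma or by voom, or had an unadjusted p under 0.05 there. Wnt6 was at 2.49 ± 0.700 scaled TPM in cKO ex vivo and at 5.69 ± 1.71 in cKO stimulated (SD, n = 3). No test is given for this difference, since Wnt6 reached the filter only through the stimulated cKO group.

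Among 20 receptors and ubiquitin ligases of receptors, 4 were tested. Ex vivo 1 was called higher in cKO and 1 lower, beside 3.62% and 1.67% of all tested genes. After stimulation 1 was called higher, beside 3.30%. Rnf43 and Znrf3, membrane ligases that remove Frizzled receptors from the surface, moved in opposite directions ex vivo. Rnf43 stood at 13.2, 13.1 and 13.1 scaled TPM in WT and at 18.1, 22.0 and 25.7 in cKO, and was higher by 0.69 ± 0.11 (log2, adjusted p = 0.00637). Znrf3 stood at 14.9, 13.1 and 14.8 in WT and at 9.30, 9.27 and 9.14 in cKO, and was lower by 0.57 ± 0.09 (adjusted p = 0.00409). After stimulation Rnf43 was again higher in cKO (0.56 ± 0.11, adjusted p = 0.0151), a call lost without WT stimulated replicate 1 or 2 (adjusted p = 0.0566 and 0.0540) or cKO stimulated replicate 1 (adjusted p = 0.0636). For Znrf3 the stimulated difference was 0.02 ± 0.09 (95% interval -0.17 to 0.21, adjusted p = 0.921). The co-receptor Lrp6, at 17.0 ± 2.83 in WT ex vivo (SD, n = 3), was not called for genotype by limma or by voom. The Frizzled receptor Fzd5 was not called by limma (0.33 ± 0.11 ex vivo, adjusted p = 0.140, and 0.39 ± 0.11 after stimulation, adjusted p = 0.0636), but voom called it higher in cKO in both states (0.40 and 0.46, adjusted p = 0.0274 and 0.0185). After stimulation it was also called with median of ratios scaling (adjusted p = 0.0473), without WT ex vivo replicate 3 (adjusted p = 0.0447) and without cKO ex vivo replicate 2 (adjusted p = 0.0476).

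Of 19 further cytoplasmic components, 15 were tested, among them Dishevelled, casein kinase and tankyrase genes. By limma 0 were called for genotype in either state, beside 5.29% of all tested genes ex vivo and 6.93% after stimulation. With so few genes, 0 is close to these shares. An unadjusted p under 0.05 was found for 2 ex vivo and 4 after stimulation, and voom called 1 and 0. With stimulation, 5 of the 15 rose and 2 fell in WT, where 12.7% of all tested genes rose and 19.3% fell. In cKO 3 rose and 2 fell, beside 17.3% and 26.5% of all tested genes. Dvl3, a Dishevelled protein that passes the signal on from the receptor, rose by 0.67 ± 0.10 in WT (adjusted p = 0.000659) and 0.55 ± 0.10 in cKO (adjusted p = 0.00199). Csnk1a1, the casein kinase that primes β-catenin for GSK3, fell by 0.56 ± 0.10 in WT (adjusted p = 0.00184) and by 0.85 ± 0.10 in cKO (adjusted p = 0.000108). As for Ctnnb1, the size of these responses moved with the scaling, Dvl3 in cKO to 0.24 with TPM as deposited (adjusted p = 0.375) and Csnk1a1 in WT to -0.37 (adjusted p = 0.249). With genes down to 1 TPM included, Dvl3 was at 0.43 in WT (adjusted p = 0.258) and 0.0369 in cKO (adjusted p = 0.923), and Csnk1a1 in WT at -0.82 (adjusted p = 0.0777). These calls were also lost with no filter.

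Of 17 nuclear partners of β-catenin, 11 were tested, and the called ones were lower in cKO. They were 1 ex vivo and 2 after stimulation, beside 1.67% and 3.63% of all tested genes called lower. Lef1 stood at 64.5, 56.1 and 58.1 scaled TPM in WT ex vivo, against 39.0, 37.1 and 33.6 in cKO, and was lower by 0.69 ± 0.09 (log2, adjusted p = 0.00173). Stimulated WT libraries held Lef1 at 41.5, 46.5 and 46.1 and stimulated cKO libraries at 19.6, 18.9 and 21.5, lower by 1.121 ± 0.09 (adjusted p = 8.50e-05). Tcf7, encoding TCF1, was at a mean of 425 ± 30.1 in WT and 425 ± 37.6 in cKO ex vivo (SD, n = 3). Once stimulated it stood at 293, 346 and 319 in WT and at 110, 149.9 and 130 in cKO, lower by 1.30 ± 0.13 (adjusted p = 0.000255). Tcf7 is among the genes that the study picked from this contrast of these libraries, so its call is not independent evidence. Lef1 is also named by the study from these libraries, and its calls are no more independent. The stimulated calls of Lef1 and Tcf7 held in all 20 alternatives.

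Of 12 common β-catenin targets, a list that shares Lef1, Tcf7, Rnf43 and Znrf3 with those above, 6 were tested. Ex vivo 1 of the 6 was higher in cKO and 2 were lower, beside 3.62% and 1.67% of all tested genes. After stimulation again 1 was higher and 2 were lower, beside 3.30% and 3.63%. The remaining tested targets, Myc and Notum, were not called for genotype. Notum reached the filter only through the stimulated cKO group, so nothing is read from its test. Myc was at 59.7 ± 12.4 scaled TPM in WT ex vivo and 59.2 ± 8.11 in cKO, and at 90.3 ± 6.21 and 92.7 ± 11.6 after stimulation (SD, n = 3). Like Ctnnb1, it rose with stimulation in both genotypes, by 0.61 ± 0.15 in WT (log2, limma adjusted p = 0.0113) and 0.64 ± 0.15 in cKO (adjusted p = 0.00703). The rise in WT was lost without WT stimulated replicate 2 (0.54, adjusted p = 0.0523), and that in cKO with TPM as deposited (0.31, adjusted p = 0.334). Both were lost with genes down to 1 TPM included (0.35 in WT, adjusted p = 0.557, and 0.0976 in cKO, adjusted p = 0.8499) and with no filter.

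Of 16 further genes of the catenin family and of cadherin junctions, 4 were tested, and none of the other 12 exceeded 3.87 TPM in a group mean. Over all tested genes, 5.29% were called for genotype ex vivo and 6.93% after stimulation. Vcl, encoding vinculin, which binds α-catenin at junctions under tension, was the only one called for genotype. It stood at 3.78, 3.68 and 2.78 scaled TPM in WT ex vivo and at 6.37, 5.30 and 6.38 in cKO, and once stimulated at 5.81, 5.995 and 6.20 and 10.6, 8.96 and 8.95. The genotypes were apart in both states, with differences of 0.67 ± 0.13 (log2, adjusted p = 0.0116) and 0.58 ± 0.13 (adjusted p = 0.0201). The ex vivo call was lost without cKO ex vivo replicate 1 or 3 (adjusted p = 0.0547 and 0.0586). The stimulated call was lost without WT stimulated replicate 1, 2 or 3 or cKO stimulated replicate 1, with an adjusted p of at most 0.0864. Vcl also rose with stimulation, by 0.67 ± 0.13 in WT (adjusted p = 0.00208) and 0.58 ± 0.13 in cKO (adjusted p = 0.00396, but 0.29 and an adjusted p of 0.294 with TPM as deposited). Both rises lost their call with genes down to 1 TPM included (0.47 in WT, adjusted p = 0.220, and 0.0964 in cKO, adjusted p = 0.787) and with no filter. Zbtb33, encoding Kaiso, a partner of p120-catenin, was not called for genotype, and neither was Cyr61, the only tested one of 5 other CCN family genes. Cyr61 also reached the filter only through the stimulated cKO group, so nothing is read from its test.

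**Figure D4:**
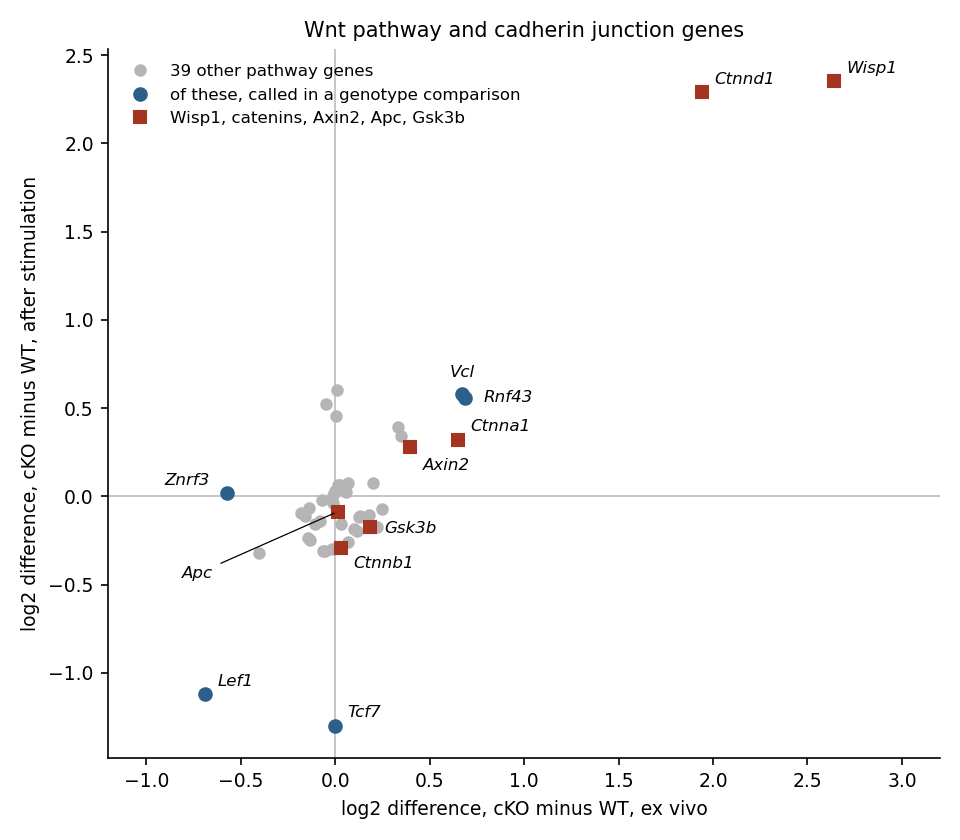
Log2 difference between cKO and WT ex vivo (horizontal) and after stimulation (vertical) for the 7 genes (red squares) and 39 other tested genes of the pathway lists (grey, or blue where called in a genotype comparison). Wisp1 and Ctnnd1 lie far at the upper right, Rnf43 and Vcl are higher in cKO on both axes, Lef1 is lower on both, Tcf7 is lower on the vertical axis (-1.30) and Znrf3 on the horizontal axis (-0.57).

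Markers of Treg states also differed between genotypes. Ex vivo no tested marker of other cells was called, where 5.29% of all tested genes were. After stimulation Cd79b was called higher in cKO and Pecam1, of the stromal, endothelial and epithelial list, lower. The call of Pecam1 was lost in 7 of 20 alternatives. No myeloid, dendritic cell or NK cell marker reached the filter. The summed level of 4 effector Treg markers (Cd44, Klrg1, Icos and Prdm1) was 218 to 251 scaled TPM in cKO ex vivo against 170 to 177 in WT, and 168 to 220 against 109 to 132 after stimulation. Ex vivo 3 of the 4 were called higher, beside 3.62% of all tested genes, with Klrg1 at 0.86 ± 0.10 (log2, adjusted p = 0.000725). The calls of Klrg1, Prdm1 and Cd44 were lost with genes down to 1 TPM included (adjusted p = 0.141, 0.0967 and 0.665) and with no filter. That of Cd44 was also lost with TPM as deposited (adjusted p = 0.113) and without WT ex vivo replicate 2 or 3 (adjusted p = 0.0799 and 0.0792) or cKO ex vivo replicate 1 or 3 (adjusted p = 0.103 and 0.0872). Cd79b, a component of the B cell receptor, was the only tested one of 4 B cell markers. It stood at 4.95, 5.84 and 8.15 in WT ex vivo against 11.004, 10.3 and 10.9 in cKO, and once stimulated at 2.43, 3.08 and 5.50 against 8.64, 6.51 and 8.28. The difference was 0.70 ± 0.23 ex vivo (adjusted p = 0.112) and 0.96 ± 0.23 after stimulation (adjusted p = 0.0283). The latter call of Cd79b was lost without WT stimulated replicate 1 or 2 (adjusted p = 0.0882 and 0.111), without cKO stimulated replicate 1 or 3 (adjusted p = 0.0991 and 0.0803), with TPM as deposited (adjusted p = 0.136) and with genes down to 1 TPM or all genes included (adjusted p = 0.328 and 0.329). The part of these shifts in the differences of the 7 genes was not tested.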

How the data were processed

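Sorted Treg RNA was depleted of ribosomal RNA and made into stranded paired-end libraries. Per the submitters' processing notes, the authors used bcl2fastq, STAR 2.6.0c with mm9 and HTSeq 0.6.1. The deposited table gives, for every gene in every library, an expression signal in TPM, which sums to 1000000 in each library, and the authors' log2 of TPM plus an offset. TPM divided by that offset gave whole reads, within 0.05, for 99.9988% of 434664 values, and these recovered reads gave the depths. A second deposited table, of the authors' own pairwise fold changes, F statistics, p-values and FDR, was not used.

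Genes averaging 5 TPM or more in some group (13318 of 36222) were brought to a common scale with TMM factors (trimmed mean of M-values, 30% of M and 5% of A trimmed). limma 3.58.1 in R 4.3.3 (lmFit, contrasts, eBayes with trend) was fitted to log2(scaled TPM + 1) of all 12 libraries, with two-sided tests and Benjamini-Hochberg adjustment within each of 5 comparisons. Tables were made with Python 3.11.15, pandas 2.3.3 and numpy 2.4.6. The scripts were tested on simulated data. No molecular identifiers were used, so reads are not independent molecules, and p-values measure the spread between these libraries. Whether an ex vivo and a stimulated library share a mouse is not given in the sources used here. Alternatives were filters of 1 TPM and none, TPM as deposited, median of ratios scaling, a pseudocount of 0.5, voom on recovered reads, a replicate block, each library left out and, chosen after seeing the data, subtraction of the median receptor gene.

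Named genes were the 7 members, Ikzf1, list genes called for genotype or interaction (at most 6 a list), the 5 genes most correlated with Wisp1, Ctnnd1 and Ctnna1, and markers, some of which are not reported here. Wnt3, Wnt6, Lrp6, Fzd5, Dvl3, Csnk1a1, Myc, Notum, Zbtb33 and Cyr61 were named as examples after their values were seen. The members and lists were chosen with earlier results of these data known. Positions and sequences are from NCBIM37 with GENCODE vM1, in which 35859 of the 36222 genes were found.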

Additional observations from a re-analysis of the deposited data

Results flagged for a closer look

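For a pair of genes of the pathway lists, the genotype effect differed between ex vivo and stimulated cells by the interaction term of limma. For Tcf7 the interaction was -1.30 ± 0.18 (log2 ± SE, adjusted p = 0.0122), with all 3 stimulated cKO libraries below the stimulated WT libraries and overlapping genotypes ex vivo. The study picked Tcf7 from the stimulated genotype contrast, which enters this interaction, so this p is not independent evidence. It was called with any 1 library left out and lost with genes down to 1 TPM included (-1.58, adjusted p = 0.436) and with no filter (-1.60, adjusted p = 0.378). For Znrf3 the interaction was 0.592 (SE 0.12, adjusted p = 0.0495), with all 3 cKO libraries below the WT libraries ex vivo and overlapping genotypes after stimulation. This call was lost in 18 of 20 alternatives, among them every one with a library left out (adjusted p from 0.0548 to 0.135), and the replicate block (0.59, adjusted p = 0.111).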

How the results depend on the processing

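The number of genes called was 704 for the genotype effect ex vivo, 923 after stimulation, 4262 and 5835 for stimulation in WT and cKO and 147 for the interaction. In this order it was 57, 68, 1838, 5902 and 0 with genes down to 1 TPM, 56, 68, 1694, 5748 and 0 with no filter, 273, 306, 1943, 4674 and 67 with TPM as deposited, and 1203, 1247, 4872, 6239 and 395 by limma voom on recovered reads. Where limma called 0 interactions, 2406 genes (1 TPM) and 2688 (no filter) had an unadjusted p under 0.05. Leaving out 1 library gave 325 to 740, 398 to 1058, 3256 to 4387, 4098 to 5990 and 50 to 206. The genotype count ex vivo fell to 371 without WT ex vivo replicate 3 and to 350, 453 and 325 without cKO ex vivo replicates 1, 2 and 3. That after stimulation fell to 580, 398 and 456 without WT stimulated replicates 1, 2 and 3 and to 447 and 602 without cKO stimulated replicates 1 and 3. The interaction count fell to 83 and 66 (WT ex vivo replicates 2 and 3), 61 and 50 (cKO ex vivo replicates 1 and 3), 92, 62 and 67 (WT stimulated replicates 1 to 3) and 56 (cKO stimulated replicate 1). The share called higher was 68.5%, 47.6%, 39.6%, 39.5% and 40.8%, against 95.2%, 22.5%, 60.5%, 11.9% and 8.96% with TPM as deposited and 16.5% and 12.8% for stimulation in WT and cKO with genes down to 1 TPM. The median gene moved by 0.22, -0.26, 0.18, -0.30 and -0.48 (log2) with TPM as deposited and by -0.02, -0.28, -0.24, -0.49 and -0.26 with genes down to 1 TPM.

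Same-numbered libraries of the ex vivo groups correlated in their deviations by 0.078 to 0.257, each best with its own number, and those of other groups by -0.208 to 0.057, so the numbers were not taken as pairs. With a replicate block the counts were 516, 630, 3945, 5458 and 65. Among the named genes the block ended the calls of the Znrf3 interaction and of Prdm1 after stimulation (adjusted p = 0.0524), and no call of the 7 members.

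Of 1380 alternative values for 69 results on single genes, 1182 kept direction and side of the threshold (or stayed within 1 SD where not tested), 138 lost a call, 12 gained one, 29 untested ones moved further and 19 changed sign. Changes of sign were the Ctnnd1 interaction (-0.125, TPM as deposited), Ctnna1 with stimulation in cKO (-0.414 with 1 TPM, -0.404 with no filter, -0.208 with TPM as deposited, -0.0334 to 0.253 with 1 library left out), Ctnnb1 for genotype ex vivo (-0.0272 to 0.104 with 1 left out), Axin2 with stimulation in WT (-0.159 with 1 TPM, -0.133 with no filter) and in cKO (0.02003 with median of ratios, -0.0938 to 0.0191 with 1 left out), Apc for genotype ex vivo (-0.100 to 0.132 with 1 left out), with stimulation in WT (0.102 with TPM as deposited, -0.187 to 0.0317 with 1 left out) and for the interaction (-0.217 to 0.0473 with 1 left out), and Gsk3b with stimulation in WT (0.0149, TPM as deposited). The cause was not tested.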
